A study of Mus musculus with 28 samples.

Results

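The genes described here are 10 heat shock proteins and chaperonins, a set chosen by name with earlier results of these data known: Hspa1a, Hspa1b, Hspa8, Hspa9, Hsp90aa1, Hsp90ab1, Hspd1, Hspe1, Dnajb1 and Hsph1. Of these 10, 8 were matched by symbol among the 13103 genes of the deposited table, and all 8 passed the filter on low values that left 12512 genes to test. Hspa9 and Hsp90aa1 were not analysed here.

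Regulatory T cells (Tregs) were sorted from Foxp3-GFP mice, in which green fluorescent protein (GFP) marks cells that express Foxp3. The mice carried B16 melanoma, a transplantable mouse tumor line, from 500000 cells placed in the skin. Tumors and spleens were taken after 7 to 10 days and digested, and GFP-positive cells were separated by the surface level of OX40, the T cell costimulatory receptor that Tnfrsf4 encodes (high or low in the study's design, plus or minus in the sample labels). The 4 groups were spleen OX40minus and spleen OX40plus (3 mice each) and tumor OX40minus and tumor OX40plus (4 mice each); all mice bore tumors, so the spleens are not from tumor-free animals, and the age and sex of the mice were not given in the sources used here. Each mouse and gate had 2 libraries, titled rep1 and rep2, which agreed nearly to within counting noise and were averaged into 1 sample. The titles do not say how the 2 were made.

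Heat shock proteins are chaperones that bind unfolded proteins and help them fold. HSP70 proteins work in cycles of ATP hydrolysis with J-domain partners that load clients and exchange factors that release them, HSP90 acts on nearly folded clients such as kinases and steroid receptors, and chaperonins enclose a client in a barrel. Some members are made at all times in growing cells, and others are made mainly when heat shock factor 1 (HSF1) binds clusters of heat shock elements after heat or other protein damage. In T cells, activation and growth raise the demand for folding, and tissue digestion is known to induce part of the stress genes.

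Promoter sequences are shown first, for a pair of neighbours with a shared heat shock run and for a pair of near-identical copies. Hspd1 and Hspe1 encode the mitochondrial chaperonin and its lid and lie head to head on chromosome 1 (Hspd1 at 55077835 to 55088243, minus strand; Hspe1 at 55088132 to 55091307, plus strand; GRCm38). RefSeq promoter windows (GRCm38.p6, 250 bases before to 50 after the start) gave 1 window for Hspe1 and 2 for Hspd1. Of the Hspd1 windows, 1 shares 285 bases with that of Hspe1. The other, around the 5′ end of the Hspd1 gene as annotated, held no heat shock run. The shared part holds an 18-base run of 4 alternating heat shock units, given in capitals, which begins 89 bases upstream of the Hspe1 start. The stretch printed overlaps an annotated exon of Hspd1.

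Hspe1 (chr1:55088053-55088082, plus strand): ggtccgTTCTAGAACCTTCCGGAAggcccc

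A unit is GAA or TTC, and neighbouring units point in opposite directions with 2 bases between them. Runs of at least 3 such units, on either strand, were in 0.603% of 32851 promoter windows of 300 bases, and runs of at least 2 units (TTCNNGAA or GAANNTTC) were in 15.1%. The inducible pair Hspa1a (chromosome 17, 34969190 to 34972156) and Hspa1b (chromosome 17, 34956436 to 34959238), both on the minus strand, had windows identical in 296 of 300 bases. Each held 1 run of 2 units, in capitals, that began 104 bases upstream of the start, and no run of 3.

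Hspa1a (chr17:34972207-34972406, minus strand): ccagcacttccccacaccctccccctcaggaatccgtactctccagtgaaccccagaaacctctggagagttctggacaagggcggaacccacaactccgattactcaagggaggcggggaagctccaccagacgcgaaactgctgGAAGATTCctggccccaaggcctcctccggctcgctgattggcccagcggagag
Hspa1b (chr17:34959289-34959488, minus strand): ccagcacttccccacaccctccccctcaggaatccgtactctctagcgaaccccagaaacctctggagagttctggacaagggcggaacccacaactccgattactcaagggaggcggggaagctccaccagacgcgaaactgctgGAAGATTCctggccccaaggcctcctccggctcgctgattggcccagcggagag

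Within these 200 bases the copies differed by C44T and T47C, with the base of Hspa1a first and positions counted from 1 at the 5′ end. A match is a description of the letters and not evidence of binding. Hsph1 (chromosome 5, 149614287 to 149636376, minus strand) had a run of 3 units, which lay after the start in both of its windows. Dnajb1 (chromosome 8, 83608193 to 83612653, plus strand) had none in its windows. Hspa8 (chromosome 9, 40800984 to 40810087, plus strand) and Hsp90ab1 (chromosome 17, 45567775 to 45573271, minus strand) were not matched to a window, so 6 of the 10 genes had one.

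Near-identical copies limit some values. Of the 31-base words of the longest coding transcript in GENCODE, 67.6% of those of Hspa1b also occur in Hspa1a, 74.3% of those of Hspa8 in the pseudogene Gm15459, and 51.8% of those of Hspd1 in Hspd1-ps3. Of the words of Hspe1, 48.1% occur in other genes, against 0.0% for Hsph1 and 0.441% for Dnajb1. The split of reads between Hspa1a and Hspa1b is therefore uncertain, and their sum is given where it matters. Hspd1 and Hspe1 overlap at their starts, and whether counting used strand is not given in the sources used here.

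Estimated counts per sample were 22.4 M to 29.6 M, and 3 counts were worth between 0.104 and 0.13 CPM, the count scaled to the size of its library. Tnfrsf4 followed the sort, at 253 ± 40.9 CPM (mean ± SD) in spleen OX40minus, 704 ± 111 in spleen OX40plus, 1950 ± 152 in tumor OX40minus and 3357 ± 203 in tumor OX40plus samples. All 9 Treg and T cell markers were detected. Foxp3 was at 23.3 to 41.0 CPM in spleen OX40minus, 34.3 to 49.7 in tumor OX40minus and 52.9 to 62.0 in tumor OX40plus samples. In spleen OX40plus mice 1 to 3 it was at 32.1, 31.8 and 130 CPM, so mouse 3 stood apart. Other cells' RNA also moved with the gates: the summed CPM of 9 macrophage markers was 769 to 969 in spleen OX40minus, 83.8 to 201 in spleen OX40plus, 225 to 344 in tumor OX40minus and 51.9 to 67.2 in tumor OX40plus samples. The 6 dendritic cell markers summed to 43.1 to 49.1 CPM in spleen OX40minus, 14.6 to 19.2 in spleen OX40plus, 134 to 193 in tumor OX40minus and 37.9 to 67.3 in tumor OX40plus samples. Of the 6 dendritic cell markers, only Itgax had a lower mean in tumor than in spleen OX40minus samples (10.2 and 38.9 CPM). Cd209a made up most of the tumor OX40minus sum (mean 97.0 CPM, and 0.0814 in spleen OX40minus). B cell markers summed to 463 to 698 CPM in spleens and 1.35 to 7.18 in tumors. Melanoma markers summed to 12.6 to 22.4 CPM in spleens and 69.3 to 184 in tumors. The 6 NK cell markers summed to 13.7 to 21.8 CPM in spleens, 3.16 to 4.32 in tumor OX40minus and 0.544 to 1.30 in tumor OX40plus samples, where Eomes was at 0. The part of these cells' RNA in the differences below was not tested. In sorted bulk samples, fewer cells that express a gene and less RNA per cell cannot be told apart.

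Per kilobase of transcript, Hspa8 was the most abundant of the 8 genes in every group (804 to 1168 CPM per kb over the group means), followed by Hsp90ab1 (374 to 668). The other 6 lay between 12.0 and 139 CPM per kb. Hspa1a was lowest in both spleen groups and in the tumor OX40plus group, and Hsph1 was lowest in the tumor OX40minus group.

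In tumors, 5 of the 8 genes were higher in OX40plus than in OX40minus Tregs, and Hspa1a, Hspa1b and Dnajb1 were not called. Hspd1, Hspe1, Hsp90ab1, Hsph1 and Hspa8 rose, with folds from 1.45 to 2.44, and in none of the 5 did the groups overlap. None of the 8 was called lower. Of all tested genes, 18.6% were called higher and 20.0% lower, and 16.7% were higher without overlap. The median log2 fold change was 0.64 over the 8 genes and -0.07 over all genes tested. Adjusted p-values of genes come from limma's moderated test with Benjamini-Hochberg adjustment over all tested genes, called at 0.05, and log2 fold changes are given with their standard error (SE).

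The mitochondrial chaperonin had the largest differences among the 8. Hspd1, the barrel subunit HSP60, stood at 127, 140, 161 and 161 CPM in tumor OX40minus mice 1 to 4 and at 251, 268, 319 and 339 in tumor OX40plus mice 1 to 4. Each OX40plus sample was above each OX40minus sample, and Hspd1 rose by 1.00 ± 0.11 on the log2 scale (1.99-fold, adjusted p = 3.98e-06). Hspe1, the lid subunit HSP10, was at 41.0, 41.8, 47.2 and 42.2 CPM in the OX40minus and 83.1, 88.3, 114 and 144 CPM in the OX40plus samples. The OX40minus samples lay close together and the OX40plus samples were spread, with mouse 4 highest, and the log2 fold change was 1.29 ± 0.16 (2.44-fold, adjusted p = 1.61e-05).

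Hsp90ab1 encodes the constitutive cytosolic HSP90. It was at 895, 936, 1006 and 936 CPM in tumor OX40minus and at 1430, 1535, 1662 and 1630 CPM in tumor OX40plus samples. The groups were well apart, with a log2 fold change of 0.73 ± 0.08 (1.66-fold, adjusted p = 7.97e-06).

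Hsph1, a large HSP70 relative that exchanges the nucleotide of HSP70, was at 60.6, 83.6, 77.6 and 72.8 CPM in tumor OX40minus and at 131, 133, 128 and 141 CPM in tumor OX40plus samples. The OX40plus samples were tight and above all others in the series, and the log2 fold change was 0.86 ± 0.10 (1.82-fold, adjusted p = 6.51e-06). Hspa8, the constitutive cytosolic HSP70, was at 1883, 1840, 2109 and 1868 CPM in tumor OX40minus and at 2606, 2630, 2952 and 2994 CPM in tumor OX40plus samples. Its rise was the smallest of the 5 called genes, at 0.54 ± 0.10 (1.45-fold, adjusted p = 0.000535). The calls of these 5 genes held in the 24 other settings tried, with the range of log2 fold change from 0.50 to 0.58 for Hspa8 and from 1.13 to 1.40 for Hspe1.

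Dnajb1, the J-domain partner that starts the HSP70 cycle and a classic heat shock gene, did not follow them. It was at 194, 193, 202 and 163 CPM in tumor OX40minus and at 187, 202, 212 and 192 CPM in tumor OX40plus samples. The groups overlapped, and the log2 fold change was 0.08 ± 0.11 (adjusted p = 0.594).

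**Figure D1:**
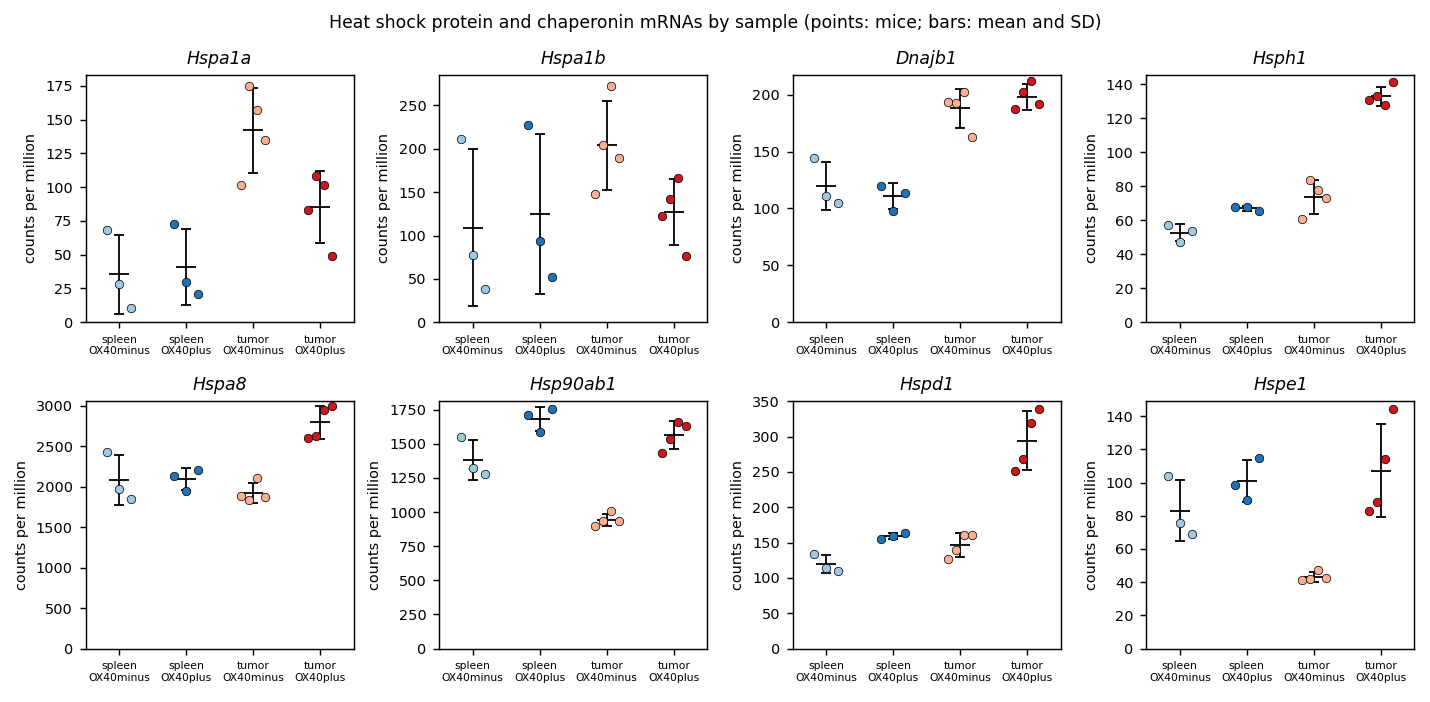
CPM (linear axis from 0) of the 8 genes in each sample. Points are mice, with the mean and SD of each group; Hspd1, Hspe1, Hsp90ab1, Hsph1 and Hspa8 are higher in tumor OX40plus than in tumor OX40minus samples without overlap, while Hspa1a and Hspa1b span wide ranges in the spleens (10.7 to 72.6 CPM for Hspa1a).

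Hspa1a and Hspa1b encode the stress-inducible HSP70, almost the same protein from neighbouring genes. Hspa1a was at 102, 175, 157 and 135 CPM in tumor OX40minus and at 82.8, 108, 102 and 49.0 CPM in tumor OX40plus samples. Hspa1b was at 148, 205, 273 and 190 CPM in tumor OX40minus and at 122, 142, 166 and 76.3 CPM in tumor OX40plus samples. Both genes were lower in the OX40plus sample of each of the 4 mice, while the groups overlapped. The log2 fold change was -0.77 ± 0.46 for Hspa1a (adjusted p = 0.208) and -0.71 ± 0.46 for Hspa1b (adjusted p = 0.243), and neither was called. For the 2 genes summed it was -0.74 (adjusted p = 0.221).

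The call depended on the fit. With the mouse as a block, since the titles name the same mouse for both gates of a tissue, limma's adjusted p was 0.0103 for Hspa1a and 0.00322 for Hspa1b. With only the tumor samples in the fit, the adjusted p was 0.0295 and 0.0373. The log2 fold change stayed at -0.77 for Hspa1a and -0.71 for Hspa1b in each of these fits. The size of the difference thus did not change between them. What made the p-values differ was not tested.

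In spleens the OX40 gates differed less. Of the 8 genes, 1 was called higher (4.39% of all tested genes were called higher and 3.60% lower) and 0 lower, and the median log2 fold change was 0.30 against 0.01 over all genes. Hspd1 was at 134, 114 and 110 CPM in spleen OX40minus mice 1 to 3 and at 155, 159 and 163 CPM in spleen OX40plus mice 1 to 3. The groups did not overlap, and the log2 fold change of 0.42 ± 0.12 was just past the threshold (adjusted p = 0.0499). That call was lost in 14 of 24 other settings, among them the fits that left out any of 5 of the 6 spleen samples, and the adjusted p ranged from 0.0194 to 0.198.

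Hsp90ab1 was at 1552, 1320 and 1279 CPM in spleen OX40minus and at 1713, 1584 and 1751 CPM in spleen OX40plus samples. Hsph1 was at 57.0, 47.3 and 53.7 CPM in spleen OX40minus and at 67.8, 68.0 and 65.4 CPM in spleen OX40plus samples. In both genes the groups were apart, as in 17.4% of all tested genes in the same direction, but neither was called: the log2 fold change was 0.29 ± 0.10 for Hsp90ab1 (adjusted p = 0.0958) and 0.35 ± 0.11 for Hsph1 (adjusted p = 0.0748). Hspe1 was at 104, 75.9 and 69.0 CPM in spleen OX40minus and at 98.7, 89.5 and 115 CPM in spleen OX40plus samples, with overlap (0.30 ± 0.19, adjusted p = 0.506).

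Hspa8 was at 2436, 1968 and 1848 CPM in spleen OX40minus and at 2134, 1947 and 2212 CPM in spleen OX40plus samples (log2 fold change 0.02 ± 0.12, adjusted p = 0.989). Dnajb1 was at 144, 111 and 105 CPM in spleen OX40minus and at 120, 97.8 and 114 CPM in spleen OX40plus samples (-0.11 ± 0.12, adjusted p = 0.813). Both overlapped between the gates.

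In spleens the inducible pair differed more between mice than between gates. Hspa1a was at 68.0, 28.2 and 10.7 CPM in spleen OX40minus mice 1 to 3 and at 72.6, 29.7 and 20.6 CPM in spleen OX40plus mice 1 to 3. Hspa1b was at 211, 77.5 and 38.3 CPM in spleen OX40minus and at 228, 93.7 and 51.9 CPM in spleen OX40plus samples. Mouse 1 was highest and mouse 3 lowest of both genes in both gates. The log2 fold change between gates was 0.38 ± 0.53 for Hspa1a (adjusted p = 0.88) and 0.28 ± 0.53 for Hspa1b (adjusted p = 0.928). Within each of the 3 mice, both genes were higher in the OX40plus sample, and with the mouse as a block the adjusted p was 0.488 and 0.512.

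The OX40 difference itself was compared between tissues with the interaction term, the tumor difference minus the spleen difference. It was called higher for 5 of the 8 genes, against 4.53% of all tested genes (6.38% were called lower). The values were 0.99 ± 0.25 for Hspe1 (adjusted p = 0.0179), 0.58 ± 0.16 for Hspd1 (adjusted p = 0.0338), 0.52 ± 0.15 for Hspa8 (adjusted p = 0.0391), 0.51 ± 0.15 for Hsph1 (adjusted p = 0.0381) and 0.44 ± 0.13 for Hsp90ab1 (adjusted p = 0.0384). For Hspa1a and Hspa1b it was -1.16 ± 0.71 (adjusted p = 0.329) and -0.99 ± 0.70 (adjusted p = 0.411), and for Dnajb1 0.19 ± 0.16 (adjusted p = 0.499).

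With the mouse as a block, Hspe1 (adjusted p = 0.0301) and Hspd1 (adjusted p = 0.0251) were still called. Hspa8 (0.0787), Hsph1 (0.0769) and Hsp90ab1 (0.0783) missed the threshold with the block, and Hspa1a (adjusted p = 0.0404) and Hspa1b (adjusted p = 0.0242) were called lower. These calls were close to the threshold. Without spleen OX40minus mouse 1, 0 of the 8 genes were called by limma, with an adjusted p of 0.056 for Hspe1. At an unadjusted p under 0.05 (limma) there were 7 genes, among them Hspa1a (-1.82) and Hspa1b (-1.64) with negative values. The share of all tested genes at that unadjusted cut was not counted. With limma-voom on all samples, that mouse included, 5 were called, as in the main fit. Of 23 other settings, the call was kept in 22 for Hspe1, 16 for Hspd1, 14 for Hspa8, 13 for Hsp90ab1 and 10 for Hsph1.

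Tumor and spleen Tregs were also compared within each gate; these 2 comparisons use the same samples as the OX40 comparisons. In OX40minus Tregs, Hspa1a, Hspa1b, Dnajb1, Hsph1 and Hspd1 were higher and Hsp90ab1 and Hspe1 lower in tumors. That is 5 of 8 called higher and 2 lower, where 29.7% of all tested genes were called higher and 29.3% lower. Without overlap, 31.4% of all tested genes were higher and 32.1% lower. Hspa1a had the largest difference, 2.36 ± 0.50 on the log2 scale (5.14-fold, adjusted p = 0.00072), and its groups did not overlap. Hspa1b differed by 1.22 ± 0.49 (adjusted p = 0.0443), with overlap through spleen mouse 1, and lost its call in 10 of 23 other settings.

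Dnajb1 was 0.65 ± 0.11 higher (1.57-fold, adjusted p = 0.000125) and Hsph1 0.48 ± 0.11 higher (1.39-fold, adjusted p = 0.00106), both without overlap. Hspe1 was lower in every tumor OX40minus sample than in any spleen OX40minus sample (-0.93 ± 0.17, adjusted p = 0.000259), and so was Hsp90ab1 (-0.55 ± 0.09, adjusted p = 8.21e-05). Hspd1 was 0.30 ± 0.12 higher (adjusted p = 0.037), with overlap, and lost its call in 8 of 24 settings. Hspa8 was not called (-0.11 ± 0.11, adjusted p = 0.415).

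In OX40plus Tregs, 5 of 8 genes were called higher in tumors and 0 lower, against 30.3% and 34.2% of all tested genes. Hsph1 was 0.99 ± 0.11 higher (1.99-fold, adjusted p = 5.49e-07), Hspd1 0.87 ± 0.12 (1.83-fold, adjusted p = 6.03e-06), Dnajb1 0.85 ± 0.11 (1.80-fold, adjusted p = 7.15e-06) and Hspa8 0.41 ± 0.11 (1.33-fold, adjusted p = 0.00318). None of these 4 overlapped between tissues, where 29.7% of all tested genes were higher without overlap. Hspa1a was called at 1.21 ± 0.50 (adjusted p = 0.045), with overlap, and lost the call in 11 of 23 settings.

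Hspa1b (0.23 ± 0.49, adjusted p = 0.699), Hsp90ab1 (-0.11 ± 0.09, adjusted p = 0.322) and Hspe1 (0.06 ± 0.17, adjusted p = 0.776) were not called. Dnajb1, Hsph1, Hspd1 and Hspa1a were thus called higher in tumors in both gates, and only in the OX40minus gate were Hsp90ab1 and Hspe1 called lower, a difference between gates that is the same quantity as the interaction above.

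**Figure D2:**
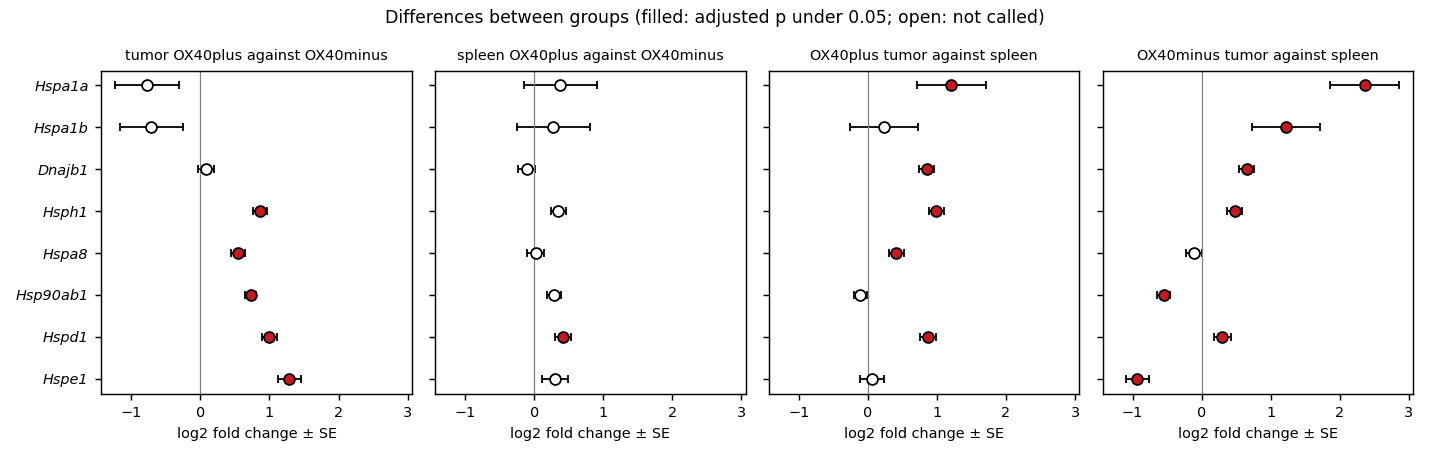
Log2 fold change with its SE for the 8 genes in the 4 comparisons, filled where limma's adjusted p was under 0.05. In tumors the 5 called genes lie right of 0 and Hspa1a and Hspa1b left of it with wide errors; between tissues Hspa1a reaches 2.36 in the OX40minus gate.

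Ratios within a sample do not depend on how libraries were scaled. The ratio of summed Hspa1a and Hspa1b to Hspa8, the inducible against the constitutive HSP70, was 0.133, 0.207, 0.204 and 0.174 in tumor OX40minus and 0.0785, 0.095, 0.0909 and 0.0418 in tumor OX40plus samples. The groups were apart, by -1.28 on the log2 scale (exact two-sided permutation test, p = 0.0286, adjusted p = 0.0457 over 8 tests). In spleens the ratio was 0.114, 0.0537 and 0.0265 in OX40minus and 0.141, 0.0633 and 0.0328 in OX40plus samples, higher in OX40plus within each mouse but with overlapping groups (exact permutation p = 0.7, adjusted p = 0.8). Between tissues it was 1.69 higher in tumor OX40minus (exact permutation p = 0.0286, adjusted p = 0.0457). In the OX40plus gate it differed by 0.14 (exact permutation p = 0.857, adjusted p = 0.857).

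The ratio of Hspd1 to its lid Hspe1 separated tissues. It was 1.29, 1.51 and 1.60 in spleen OX40minus and 1.57, 1.78 and 1.42 in spleen OX40plus samples. It was 3.10, 3.35, 3.42 and 3.81 in tumor OX40minus and 3.02, 3.04, 2.79 and 2.36 in tumor OX40plus samples. Every tumor sample was above every spleen sample, by 1.22 in OX40minus and 0.81 in OX40plus Tregs on the log2 scale (exact permutation p = 0.0286, adjusted p = 0.0457 for each). Within tumors it was 0.29 lower in log2 in OX40plus samples (difference -0.29, exact permutation p = 0.0286, adjusted p = 0.0457), and in spleens it differed by 0.12 (exact permutation p = 0.5, adjusted p = 0.667).

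The value 0.0286 is the smallest p these designs allow (0.1 for the spleen gates). With the mouse as a block, the adjusted p of both tumor ratios was 0.25 in an exact permutation test. That is the smallest adjusted p the blocked test allows with 4 mice, so it could not have kept a call. Without the block, the calls were lost with the rep1 libraries alone (exact permutation test). The adjusted p was 0.137 for Hspd1 to Hspe1 in tumors and 0.0571 for each of the other called ratios. The adjustment over 8 tests can raise the adjusted p of a ratio whose own p did not change. The share of Hspa1a in the sum of Hspa1a and Hspa1b also differed by tissue: 24.3% ± 2.42 and 25.5% ± 2.49 in spleen OX40minus and OX40plus, and 41.3% ± 3.90 and 40.2% ± 2.26 in tumor OX40minus and OX40plus samples (mean ± SD). This share was not tested and rests on how reads were split between near-identical copies.

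**Figure D3:**
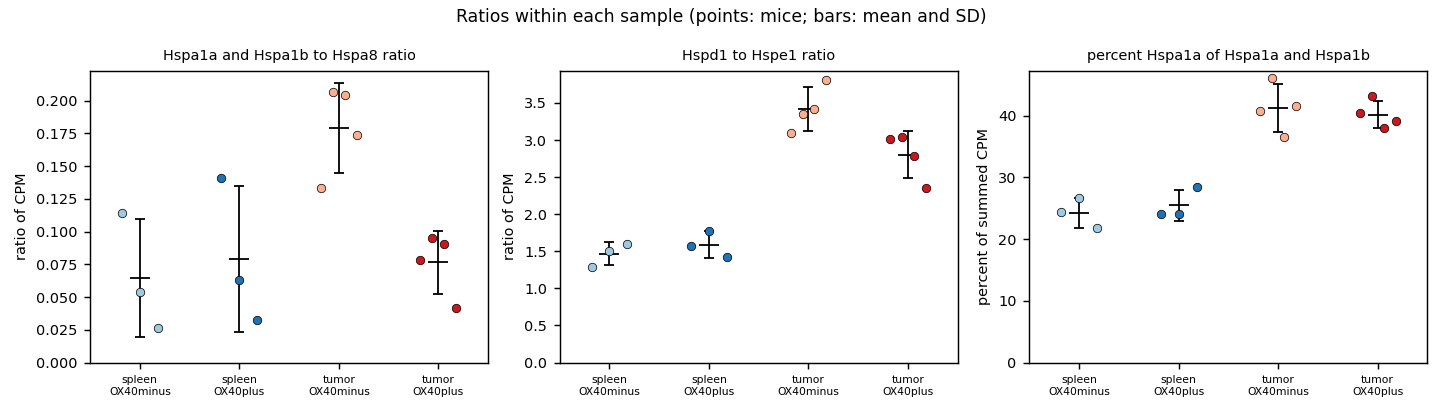
Within-sample ratios of CPM (left and middle) and the percent of Hspa1a in summed Hspa1a and Hspa1b (right), with points for mice and the mean and SD of each group; axes start at 0. Hspd1 to Hspe1 lies at 1.29 to 1.78 in spleens and 2.36 to 3.81 in tumors.

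The wider chaperone network was read from gene lists chosen with earlier results of these data known. A first list held 8 tested genes of the cytosolic chaperonin CCT, which folds actin and tubulin, and its helper prefoldin. Of these, 7 were higher and 0 lower in tumor OX40plus than in OX40minus samples, with a median log2 fold change of 0.78. Of all tested genes, 18.6% were called higher there and 20.0% lower. Tcp1 (0.98 ± 0.10, adjusted p = 2.6e-06), Cct3 (0.87 ± 0.08, adjusted p = 1.32e-06) and Cct5 (0.87 ± 0.10, adjusted p = 5.82e-06), all CCT subunits, had the smallest p. In spleens 0 of the 8 were called by limma (1 at an unadjusted p under 0.05, and 0 with limma-voom). Of all tested genes, 4.39% were called higher in spleens and 3.60% lower. The interaction was called higher for 6 and lower for 0, against 4.53% and 6.38% of all tested genes. Cct3 was at 176 ± 19.0 CPM in spleen OX40minus, 204 ± 19.3 in spleen OX40plus, 268 ± 6.97 in tumor OX40minus and 492 ± 35.6 in tumor OX40plus samples.

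Other classes were called in part; the counts are read against 18.6% of all tested genes called higher and 20.0% lower. Of 15 HSP90 family and cochaperone genes, 7 were higher and 0 lower in tumor OX40plus samples, including Ppid (0.90 ± 0.11, adjusted p = 1.8e-05) and Fkbp4 (0.77 ± 0.09, adjusted p = 1.3e-05), peptidyl-prolyl isomerases that bind HSP90. Of 11 further HSP70 family members and exchange factors, 6 were higher and 0 lower, among them Hspa14 (0.63 ± 0.08, adjusted p = 2.75e-05) and Hspa4 (0.52 ± 0.07, adjusted p = 2.62e-05). Of 8 mitochondrial chaperone and protease genes, 5 were higher and 0 lower, including Trap1, the mitochondrial HSP90 (0.52 ± 0.09, adjusted p = 0.000385). Of 9 endoplasmic reticulum chaperones, 6 were higher and 0 lower, with the smallest p for Canx (0.57 ± 0.07, adjusted p = 1.14e-05).

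J-domain genes and heat shock factors were near or below those shares. Of 11 J-domain genes, 3 were higher and 1 lower, with a median of 0.00, and Dnaja3, a mitochondrial J-domain protein, was highest of the called genes at 0.84 ± 0.14 (adjusted p = 0.0002). Among 10 heat shock factors and small heat shock proteins, 1 was higher (Hsf2, 0.76 ± 0.17, adjusted p = 0.00199) and 1 lower (Hspb8, a small heat shock protein, adjusted p = 0.0123, at 0.715 to 1.38 CPM in tumor OX40minus and at most 0.812 CPM in tumor OX40plus samples). In spleens 0 of the 64 genes of these 6 lists were called by limma, against 4.39% of all tested genes higher and 3.60% lower. At an unadjusted p under 0.05 (limma) there were 6, and 0 were called with limma-voom. The medians of the lists in spleens lay between -0.07 and 0.30.

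Between tissues, 30.3% of all tested genes were called higher and 34.2% lower in OX40plus tumors, and 29.7% and 29.3% in OX40minus tumors. Of the 11 further HSP70 family members and exchange factors, 9 were higher and 1 lower in OX40plus tumors, and 7 were higher and 1 lower in OX40minus tumors. Hspa2, an HSP70 gene, was 1.68 ± 0.18 higher in the OX40plus and 2.02 ± 0.18 higher in the OX40minus gate (adjusted p = 6.55e-07 and 1.05e-07). Bag6, a chaperone of membrane protein delivery and quality control, was the 1 lower gene in both gates (-2.41 ± 0.11 and -2.23 ± 0.11, adjusted p = 2.44e-11 and 7.97e-11). Of the endoplasmic reticulum chaperones, 7 of 9 were higher and 1 lower in each gate, with Pdia6, a disulfide isomerase, at 1.86 ± 0.10 and 1.43 ± 0.10 (adjusted p = 1.57e-10 and 4.68e-09). Of the CCT and prefoldin genes, 6 of 8 were higher and 0 lower in the OX40plus gate, and 5 higher and 1 lower in the OX40minus gate. HSP90 family and cochaperone genes had 8 of 15 higher and 1 lower in the OX40plus gate, and 6 higher and 2 lower in the OX40minus gate. Other lists were more mixed: J-domain genes had 6 of 11 higher and 3 lower, and 5 higher and 1 lower in the OX40minus gate. Mitochondrial genes had 4 of 8 higher and 2 lower, and 3 higher and 2 lower in the OX40minus gate. Heat shock factors and small heat shock proteins had 3 of 10 higher and 2 lower, and 5 higher and 1 lower in the OX40minus gate.

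**Figure D4:**
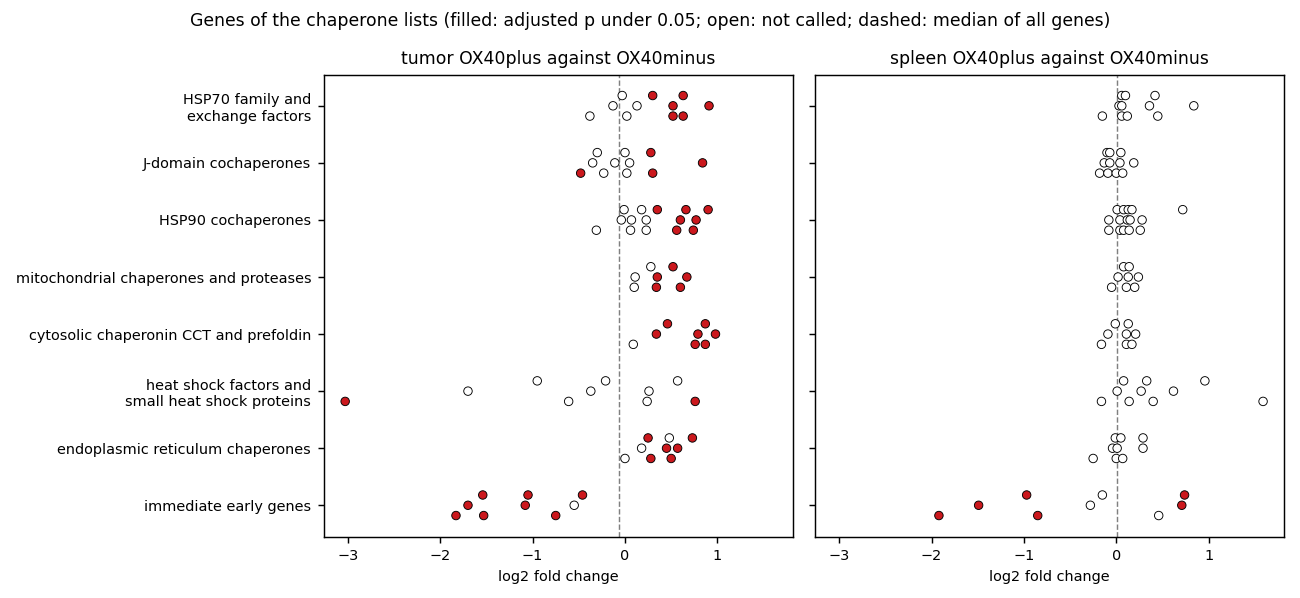
Log2 fold change of each tested gene of 8 lists between OX40 gates in tumors (left) and spleens (right); filled points had a limma adjusted p under 0.05, and the dashed line is the median of all genes (-0.07 and 0.01). Of the CCT and prefoldin genes, 7 of 8 are filled on the right side in tumors, and 8 of 9 immediate early genes are filled on the left.

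Immediate early genes, which tissue dissociation is known to induce, were measured beside Hspa1a and Hspa1b. The list of 9 such genes, without heat shock genes, had 8 lower and 0 higher in tumor OX40plus than in OX40minus samples (median -1.08). Of all tested genes, 20.0% were called lower there and 18.6% higher. Between tissues, 7 were higher and 0 lower in OX40minus tumors (median 1.73), against 29.7% and 29.3% of all tested genes. In OX40plus tumors, 7 were higher and 2 lower (median 0.56), against 30.3% and 34.2%. Their summed CPM was 2306 to 2766 in spleen OX40minus, 1879 to 2689 in spleen OX40plus, 7460 to 8544 in tumor OX40minus and 3544 to 4226 in tumor OX40plus samples. Fos, an AP-1 subunit, was at 1274 ± 127 CPM in tumor OX40minus and 438 ± 40.5 in tumor OX40plus samples (-1.54 ± 0.11, adjusted p = 6.58e-08). In spleens 2 of the 9 were higher and 4 lower in OX40plus samples, against 4.39% and 3.60% of all tested genes. The spleen ranges of the sum overlapped, while Hspa1a ranged from 10.7 to 68.0 CPM over the spleen mice of the OX40minus gate. The part of dissociation in the levels of Hspa1a and Hspa1b was not tested.

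The genes whose log2 CPM was most like each member's over the 14 samples were ranked by Pearson's r among 8208 genes other than the members themselves, as a description, since samples of 1 group share their level. Hspd1 was most like Ilf2 (r = 0.988), Nhp2 (0.979), a small nucleolar ribonucleoprotein, and Tcp1 (0.977), a CCT subunit. Hsp90ab1 was most like Ppan (0.967), a ribosome assembly factor, Anp32b (0.964) and Gpatch4 (0.962). Hspa8 was most like Uqcrc2 (0.975), of respiratory complex III, Srm (0.975), spermidine synthase, and Pes1 (0.961), a ribosome assembly factor. Hspe1 was most like Zfp593 (0.970), Eif3i (0.966), a translation initiation factor subunit, and Anp32b (0.961).

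Hsph1 was most like Nudt5 (0.983), Alg8 (0.979) and Shmt1 (0.978), an enzyme of one-carbon metabolism. Dnajb1 was most like Ube2g2 (0.983), a ubiquitin-conjugating enzyme, Fdps (0.978), of the mevalonate pathway, and Rab7 (0.977). Hspa1a was most like Cited2 (0.911), Bin3 (0.874) and Stx6 (0.865), and Hspa1b like Cited2 (0.720), Abi1 (0.717) and Tap1 (0.697). Between the copies, Hspa1a and Hspa1b had r = 0.902 over the samples and 0.971 for deviations from the group means.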

How the data were processed

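RNA was measured in 28 libraries, 14 samples of mouse and gate with 2 libraries each. The tools were bcl2fastq 2.19, kallisto and limma, with mm10 as the build, per the submitters' processing notes. The table the authors deposited holds log2 CPM in the form that adds 0.5 to each count, read from the values: 451 to 1322 genes share each library's lowest value, which gave its effective size and, by inversion, estimated counts. How transcripts were summed to genes is not stated in the labels. Because the deposited values are log2 and not counts, limma 3.58.1 (R 4.3.3) was fitted to mean log2 CPM per sample, with 1 term per group and a mean-variance trend, over genes that reached 0.382 CPM in 3 or more samples and 15 counts in all. Log2 fold changes understate changes of genes near 0. Means and SD of CPM come from the estimated counts.

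The members and gene lists were chosen with earlier results of these data known. Named genes were the members, for each list the 3 genes of smallest adjusted p per comparison, Tnfrsf4, and the 3 genes most like each member. The block uses the mouse number in the titles, shared by both gates of a tissue; same-numbered tumor samples had deviations correlated at -0.0183 to 0.0593 and spleen samples at -0.48 to 0.461. The labels do not say whether spleen and tumor numbers mean the same mouse, and p-values measure the spread between these mice. The planned ratio with Hsp90aa1 was not analysed here. Alternatives are given at the end. The fit without a block was tested on simulated data with independent samples, which cannot decide the calls that changed with the block.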

Additional observations from a re-analysis of the deposited data

Results flagged for a closer look

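Within the tumor OX40minus group, Hspa8 in mouse 3 (2109 CPM) stood apart from the other 3 samples (1840 to 1883 CPM). It was the 1 such case among 16 groups of 4 samples looked at, and chance gives about 1 in 20.

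The OX40 difference was larger in tumors than in spleens, by the interaction term of limma's fit, for Hspe1 (0.99 on the log2 scale), Hspd1 (0.58), Hspa8 (0.52), Hsph1 (0.51) and Hsp90ab1 (0.44). The tumor differences of these genes were 1.29, 1.00, 0.54, 0.86 and 0.73, and the spleen differences 0.30, 0.42, 0.02, 0.35 and 0.29. With the mouse as a block, limma's adjusted p was 0.0301 for Hspe1 and 0.0251 for Hspd1, and the calls of Hspa8 (0.0787), Hsph1 (0.0769) and Hsp90ab1 (0.0783) were lost. Without spleen OX40minus mouse 1, 0 of the 5 were called by limma. On all samples limma-voom called 5, as the main fit did, which does not bear on that loss.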

How the results depend on the processing

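Across the settings tried, 832 of 942 log2 fold changes of the members kept direction and side of the threshold, 83 lost the call, 13 gained it and 14 turned sign. None that turned sign was called. With 1 sample left out, the spleen difference ranged over -0.06 to 0.14 for Hspa8, -0.20 to 0.03 for Dnajb1, -0.31 to 1.05 for Hspa1a and -0.30 to 0.93 for Hspa1b. Between tissues, Hspe1 in the OX40plus gate turned to -0.04 (library size alone) and -0.01 (replicate block), and with 1 sample left out it ranged over -0.09 to 0.17, Hspa1b there over -0.27 to 0.80 and Hspa8 in the OX40minus gate over -0.19 to 0.01. The number of members called in spleens was 0 with relative log expression factors, 0 without the filter, 0 with limma-voom, 3 with library size alone, 2 with only the spleens fitted, and 0 to 2 with 1 sample left out. All genes called in spleens numbered 999, 1849 with only the spleens fitted, and 641 (without spleen OX40plus mouse 1) to 1191 with 1 sample left out. For the interaction, 3 members were called with the rep1 libraries alone and 0 (without spleen OX40minus mouse 1) to 5 with 1 sample left out, against 5; of all genes, 766 (without spleen OX40plus mouse 1) to 1628 against 1365. The ratios lost their calls when any 1 sample was left out (adjusted p of 0.0571 or more, exact permutation test). Some tests then had fewer permutations, and the adjustment over the 8 tests also raised the adjusted p of tests whose samples were unchanged. The ratios kept their size: -1.41 to -1.01 and 1.17 to 2.23 for inducible to constitutive HSP70 in tumors and between OX40minus tissues, and -0.34 to -0.21, 0.74 to 0.90 and 1.13 to 1.29 for Hspd1 to Hspe1 in tumors and between OX40plus and OX40minus tissues. The uncalled first ratio ranged over -0.26 to 0.81 in spleens and -0.37 to 0.68 between OX40plus tissues. With the rep1 libraries alone the called ratios were -1.26, 1.65, -0.23, 0.86 and 1.16. With the replicate block the tumor ratios were -1.28 and -0.29. In tumors 7 members were then called, 5 higher and 2 lower (of all genes, 2115 higher and 2371 lower). In spleens 1 member was called, higher (of all genes, 465 higher and 393 lower). For the interaction 4 members were called, 2 higher and 2 lower (of all genes, 355 higher and 605 lower). Across tissues, where a shared number may not be a shared mouse, the block removed the call of Hspd1 in the OX40minus gate (0.24). The cause was not tested for the other changes. With library size alone the median of all genes between OX40plus tissues was -0.23 against -0.13. The planned ratio of Hsp90aa1 to Hsp90ab1 was not run.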
